A study of Mus musculus with 24 samples.

Results

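The nuclear genes of oxidative phosphorylation were followed through the postnatal mouse lung. They were chosen by name: every RefSeq symbol that starts with Nduf (complex I), Sdha to Sdhd (complex II), Uqcr (complex III), Cox4 to Cox8 (complex IV) or Atp5 (complex V). The rule gave 119 symbols, of which 100 are protein coding and 19 are pseudogenes. The array carried probes for 96 of them, among 19718 genes with a RefSeq symbol, and 94 were bright enough to test, among 15891 genes tested. Each of the 94 was well above background on all 24 arrays, so the filter on dim probes chose none of them for being high at one age. Whole lungs of healthy C57BL/6 mice at postnatal day 1, day 4, day 7 and day 14 (5 arrays each) and day 42 (4 arrays) were hybridised singly to 1-colour Agilent arrays. Age is the only factor the labels name: no genotype, treatment or sex is given, and although the series title calls the lungs fetal, every sample is labelled postnatal. All 12 lung markers looked at, from surfactant protein C (Sftpc) to the endothelial gene Cldn5, were well above background on all 24 arrays.

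Oxidative phosphorylation takes electrons from NADH at complex I and from succinate at complex II, passes them through complex III and cytochrome c to oxygen at complex IV, and uses the proton gradient so made to drive ATP synthesis at complex V. Most subunits are encoded in the nucleus, while a few catalytic ones are encoded in the mitochondrial genome and are outside the rule. Complex IV has tissue isoforms: Cox6a2, Cox7a1 and Cox8b are known from heart and skeletal muscle, Cox7a1 and Cox8b also from brown fat, Cox6b2 from testis, and Cox4i2 from lung, where it replaces Cox4i1 in oxygen-sensing cells. The labels call the replicates biological and do not say whether lungs were pooled, so p-values measure the spread between these samples. In whole tissue, fewer cells of a type and less RNA per cell cannot be told apart.

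The 94 tested members were 36 subunits of complex I (7 core subunits, which carry the flavin, iron-sulfur clusters or the quinone site, and 29 accessory ones), 4 of complex II, 8 of complex III, 18 of complex IV, 16 of complex V and 12 assembly factors (Ndufaf and Sdhaf genes, which build complexes I and II but are not part of them). Ndufa4 and its paralog Ndufa4l2 are counted with complex IV, where Ndufa4 is a subunit. Cox7b2 and Cox8c, isoforms known from testis, were on the array and untested, with signal well above background on 0 and 1 of the 24 arrays. The 4 protein-coding members Atp5g1, Ndufb1, Ndufb4b and Ndufb4c and the 19 pseudogenes had no probe matched to them. Several members have processed pseudogenes or near-identical copies (Atp5g1, Atp5g2 and Atp5g3, for example), and a probe may also bind RNA of a copy. The members were bright: the median member lay at percentile 91.5 of all genes tested by mean signal.

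Promoters of the members were searched for short motifs. RefSeq promoters (GRCm38.p6, 300 bases from 250 before to 50 after the start) were matched for 78 of the 94 members and for 17491 protein-coding genes. The core letters of nuclear respiratory factor 1 (GCGCA, any base, then GCGC) were found on either strand in 21 member promoters (26.9%), against 7.17% of all promoters. The ETS core of GABP (nuclear respiratory factor 2), CCGGAAG, was in 22 (28.2%), against 12.9%, and the YY1 core AAGATGGCG in 8 (10.3%), against 2.14%. The estrogen-related receptor motif AAGGTCA was in 8 (10.3%), against 4.73%. Of the 21 members lower at day 42 than at day 1 by the test described later, 18 had a promoter in the table, and these letters were in 5, 4, 3 and 2 of them in the same order. A match describes the letters of this window and no site of binding, and base composition was not matched. The 5 promoters printed here were chosen for the results, with these letters in capitals: the pair of members with the largest day 42 minus day 1 falls, a complex V subunit that holds 3 of the motifs, and 2 muscle isoforms that hold none of them. Holding none was not particular to muscle isoforms: among the 21 lower members, Cox5b, Cox7a2, Cox7c and Ndufv2 also held none.
Ndufa11, chr17:56717512-56717811, plus strand: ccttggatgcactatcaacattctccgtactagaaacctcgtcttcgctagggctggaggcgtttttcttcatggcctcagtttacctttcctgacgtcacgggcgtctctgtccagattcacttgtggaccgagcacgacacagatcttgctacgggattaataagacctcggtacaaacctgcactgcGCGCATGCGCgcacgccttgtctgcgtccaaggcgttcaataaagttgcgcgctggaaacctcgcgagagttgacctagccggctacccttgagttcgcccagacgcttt
Atp5o, chr16:91931581-91931880, minus strand: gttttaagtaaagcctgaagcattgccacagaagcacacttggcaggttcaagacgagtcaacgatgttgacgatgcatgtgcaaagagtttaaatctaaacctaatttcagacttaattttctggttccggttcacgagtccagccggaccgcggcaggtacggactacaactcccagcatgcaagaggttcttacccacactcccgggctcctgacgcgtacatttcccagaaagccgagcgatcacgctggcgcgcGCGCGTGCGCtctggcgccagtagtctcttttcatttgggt
Atp5k, chr5:108434350-108434649, minus strand: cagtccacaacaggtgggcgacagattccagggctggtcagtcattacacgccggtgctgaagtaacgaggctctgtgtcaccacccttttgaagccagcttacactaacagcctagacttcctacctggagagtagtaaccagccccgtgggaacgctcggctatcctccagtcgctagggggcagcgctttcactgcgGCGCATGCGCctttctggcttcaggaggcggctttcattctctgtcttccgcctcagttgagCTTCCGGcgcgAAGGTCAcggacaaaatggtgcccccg
Cox7a1, chr7:30183921-30184220, plus strand: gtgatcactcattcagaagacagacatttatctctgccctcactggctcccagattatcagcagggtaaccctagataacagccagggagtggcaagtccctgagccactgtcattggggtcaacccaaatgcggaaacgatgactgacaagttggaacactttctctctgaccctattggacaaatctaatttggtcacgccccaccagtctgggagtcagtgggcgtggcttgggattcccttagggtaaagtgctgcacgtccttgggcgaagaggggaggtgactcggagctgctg
Cox8b, chr7:140900397-140900696, minus strand: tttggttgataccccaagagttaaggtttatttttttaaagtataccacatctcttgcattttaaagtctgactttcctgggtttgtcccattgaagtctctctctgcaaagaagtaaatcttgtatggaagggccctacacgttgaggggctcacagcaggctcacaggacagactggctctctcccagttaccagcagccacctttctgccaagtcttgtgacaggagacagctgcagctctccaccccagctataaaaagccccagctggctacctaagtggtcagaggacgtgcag
In Ndufa11, Atp5o and Atp5k the capitals hold the nuclear respiratory factor 1 letters, and in Atp5k also the ETS letters on the minus strand and the estrogen-related receptor letters.

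A level below is the log2 of a probe's processed signal relative to the 75th percentile of its array, so a difference of 1 is a 2-fold change; levels of different probes are not compared. In all, 5 arrays stood apart before any comparison. These were replicates 4 and 5 of day 1, replicates 1 and 3 of day 4 and replicate 4 of day 42. They had the lowest 75th percentiles, from 476 to 979 units against 996 to 1653 on the other 19, and the smallest shares of spots well above background, 50.4% to 56.0% against 57.0% to 79.7%. On them the members were displaced together, and the median of all genes was displaced in the same direction. Array medians were taken over 88 members, leaving out the tissue isoforms Cox4i2, Cox6a2, Cox6b2, Cox7a1, Cox8b and Ndufa4l2. The array median of these 88, each centred on its mean over all arrays, was 1.21 and 0.87 on the day 1 pair, 0.70 and 0.63 on the day 4 pair and 0.65 on the day 42 array. On the other arrays it ran from -0.51 to 0.38. The median of all genes tested, centred alike, was 0.31 to 0.46 on the 5 arrays and -0.16 to 0.04 on the others. On day 42 replicate 4, 75 of the 94 members were above all 3 other day 42 arrays, as were 61.4% of all genes tested, and 16 members were below all 3, as were 29.8% of all genes. On each of the 5 arrays 57.6% to 63.8% of all genes were above the remaining arrays of their age, and 27.2% to 33.8% below. The share of all genes that did so on all 5 was not counted. Over the 5 arrays, 67 members were above the remaining arrays of their age every time. Another 8, named here because of these values, were below them every time: Ndufs1 and Ndufs4 (complex I, electron input arm), Ndufa5, Uqcrb (complex III), Cox7b (complex IV), Atp5pb (subunit b of the complex V stalk), Ndufaf4 and Sdhaf3. Cox7b showed it most plainly: it read 3.31, 3.17 and 3.12 on day 42 replicates 1 to 3, and 1.26 on replicate 4. Each comparison is therefore given with all 24 arrays and without these 5.

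**Figure D1:**
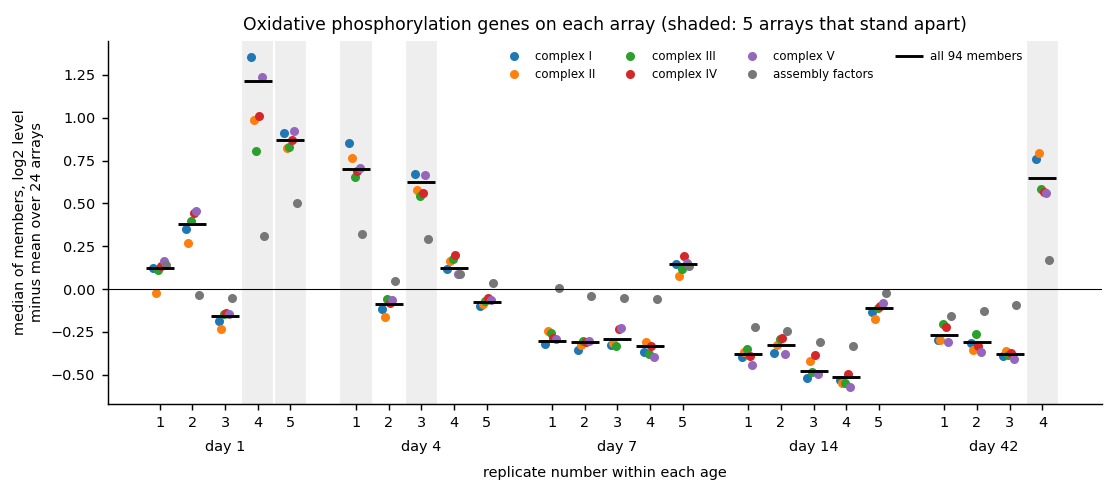
Median of the members of each complex (coloured points) and of all complexes together (black bars, labelled all 94 members) on each of the 24 arrays, as log2 level minus the member's mean over all arrays. The tissue isoforms are left out of all these medians, so the black bars cover 88 members. The 5 shaded arrays sit at 0.63 to 1.21 and the others at -0.51 to 0.38; without the shaded ones, the 3 remaining day 42 arrays span -0.38 to -0.27 and the 3 remaining day 1 arrays -0.16 to 0.38.

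Across the 5 ages most members had their highest mean at day 1, which depended in part on single arrays. Of the 94, 78 had their highest age mean at day 1 and 70 had their lowest at day 14; without the 5 arrays these counts were 72 and 58, and 25 members then had their lowest mean at day 42. The mean of the array medians, all arrays included, was 0.49 ± 0.55 at day 1, 0.26 ± 0.38 at day 4, -0.22 ± 0.20 at day 7, -0.36 ± 0.16 at day 14 and -0.08 ± 0.48 at day 42 (SD over arrays, n = 5, 5, 5, 5 and 4). Without the 5 arrays it was 0.12 ± 0.27, -0.01 ± 0.12, -0.22 ± 0.20, -0.36 ± 0.16 and -0.32 ± 0.05 (n = 3, 3, 5, 5 and 3). The moderated F-test of limma over the ages passed Benjamini-Hochberg adjusted p under 0.05 for 35 of 94 members, where 31.8% of all genes tested passed; without the 5 arrays it passed for 48, with a background of 53.9%. By complex, 13 of 36 complex I subunits passed (1 of 7 core and 12 of 29 accessory), 1 of 4 of complex II, 3 of 8 of complex III, 7 of 18 of complex IV, 9 of 16 of complex V and 2 of 12 assembly factors. Leaving out 1 array changed this count most in 5 cases: it was 18 when day 1 replicate 5 or day 14 replicate 4 was dropped, 22 when day 14 replicate 3 was, 60 when day 42 replicate 4 was and 62 when day 1 replicate 3 was.

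Between day 42 and day 1, the last and first ages, the calls made with all arrays fell in complexes I, IV and V and the assembly factors. With all arrays, 21 of 94 members (22.3%) were lower and none was higher; of all genes tested, 13.7% were lower and 13% higher. The median member differed by -0.51 on the log2 scale, against -0.06 over all genes; with quantile normalization these values were -0.26 and 0.01, and in the authors' table -0.25 and 0.06. Without the 5 arrays, 47 members (50%) were lower, including all 21, and none was higher, against backgrounds of 24% and 22.6%; the median member then differed by -0.40 and the median gene by -0.03. Genes as bright as most members (the brightest 25% of those tested, 3973 genes) had a median of -0.20 with all arrays and -0.09 without the 5, and 13.2% and 26.7% of them were lower.

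In complex V, 7 of 16 subunits were lower with all arrays and 13 without the 5, with a median difference of -0.69 (-0.53 without the 5) and no subunit above 0. Atp5o, the OSCP subunit that links the catalytic head to the outer stalk, read 3.50, 3.50, 3.32 and 4.64 on the 4 day 42 arrays, against 4.31, 4.87, 4.06, 5.47 and 5.14 on the 5 day 1 arrays. The 4.64 belongs to day 42 replicate 4, and the other day 42 arrays lay below every day 1 array. The difference in Atp5o was -1.03 ± 0.30 (SE; limma adjusted p = 0.0116), and -0.97 ± 0.21 without the 5 arrays (limma adjusted p = 0.00121). Atp5md, a small membrane subunit at the dimer interface, read 3.91, 3.92, 3.87 and 3.67 at day 42, against 4.36, 4.80, 4.18, 4.66 and 4.80 at day 1. Its groups did not overlap, and its difference was -0.72 ± 0.16 (limma adjusted p = 0.00145). The proteolipid subunits Atp5mpl (-0.77 ± 0.19) and Atp5g3 (-0.77 ± 0.28, one of the genes for the rotating c ring), the membrane subunits Atp5k (-0.77 ± 0.23) and Atp5j2 (-0.74 ± 0.26) and the stalk subunit Atp5j (-0.42 ± 0.13) were the others. Atp5pb, the nearest to 0 in the complex at -0.37 ± 0.21, did not pass (limma adjusted p = 0.212), and was one of the genes that read low on the arrays standing apart.

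In complex I, 6 of 36 subunits (16.7%) were lower with all arrays, near the 13.7% of all genes. Without the 5 arrays 17 (47.2%) were, against 24% of all genes. With all arrays, every one of the 36 differences was below 0, as were 53.3% of those of all genes, with a median of -0.53. Ndufa11, an accessory subunit of the membrane arm, had the largest fall of all members. It read 0.29, 0.31, 0.25 and 1.72 at day 42, against 1.36, 1.89, 1.13, 3.00 and 2.32 at day 1. Replicate 4 was again the only day 42 array inside the day 1 range. The difference was -1.30 ± 0.35 (limma adjusted p = 0.00723), a fold of 0.406, and -1.18 ± 0.19 without the 5 arrays (limma adjusted p = 9.39e-05). The other accessory subunits were Ndufb6 (-0.74 ± 0.26), Ndufc1 (-0.73 ± 0.23), Ndufab1, the mitochondrial acyl carrier protein (-0.70 ± 0.20), and Ndufb5 (-0.57 ± 0.15). Ndufv2, an iron-sulfur subunit of the NADH-oxidising tip, was the only core subunit called (-0.56 ± 0.16, limma adjusted p = 0.0099). Ndufs3, at the middle of the complex, differed by -0.53 ± 0.29 (limma adjusted p = 0.199) and Ndufs1, the largest core subunit, by -0.01 ± 0.25 (limma adjusted p = 0.986).

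Complex IV had 5 of 18 genes lower with all arrays and 9 without the 5, with a median of -0.44. They were Cox5b (-0.84 ± 0.30), Cox7c (-0.71 ± 0.20), Cox6c (-0.68 ± 0.20), Cox7a2 (-0.67 ± 0.16) and Ndufa4 (-0.60 ± 0.21). Cox7a2, the common isoform of its subunit, read 3.51, 3.39, 3.40 and 3.58 at day 42, against 4.00, 4.21, 3.71, 4.25 and 4.51 at day 1, with no overlap. The commonly expressed isoforms Cox4i1 (-0.72 ± 0.34), Cox6b1 (-0.71 ± 0.32), Cox8a (-0.45 ± 0.32), Cox7b (-0.44 ± 0.46) and Cox6a1 (-0.42 ± 0.33) did not pass with all arrays; without the 5, Cox4i1 (-0.59 ± 0.16), Cox6b1 (-0.56 ± 0.18) and Cox7b (-0.47 ± 0.17) did. No member of complexes II and III passed with all arrays. In complex II the differences ran from -0.53 ± 0.20 for Sdhd, a membrane anchor (limma adjusted p = 0.0584), through -0.49 ± 0.35 for Sdhb, the iron-sulfur subunit, to -0.10 ± 0.20 for Sdha, the flavoprotein. In complex III they ran from -0.80 ± 0.40 for the core protein Uqcrc1 through -0.46 ± 0.21 for Uqcrfs1, the Rieske iron-sulfur protein, to 0.01 ± 0.27 for Uqcrb. Without the 5 arrays, 2 of 4 and 3 of 8 were lower in these complexes.

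**Figure D2:**
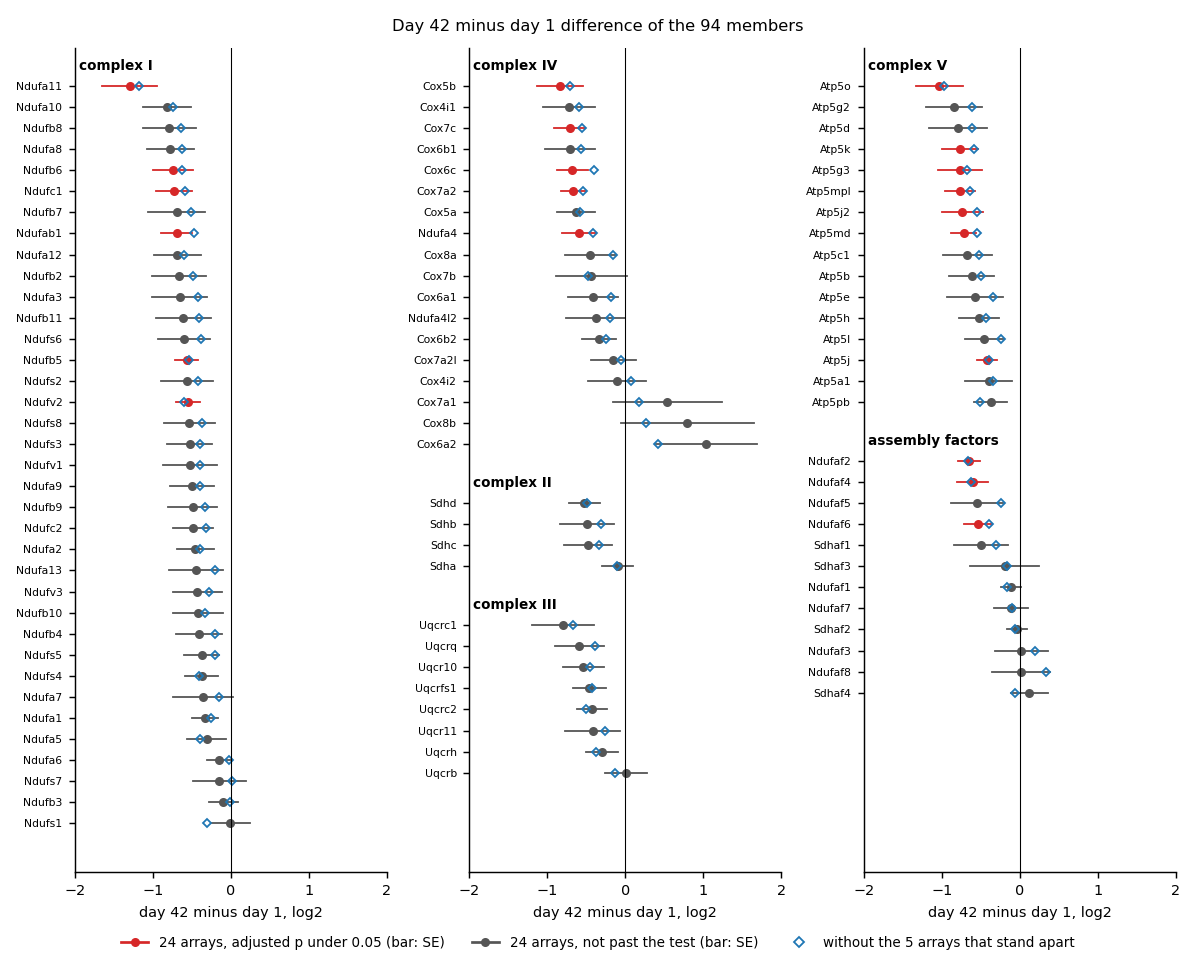
Day 42 minus day 1 difference of each of the 94 members on the log2 scale, by complex; circles and bars give the estimate and SE with 24 arrays (red where the limma adjusted p is under 0.05), and open diamonds the estimate without the 5 arrays that stood apart. Ndufa11 (-1.30), Atp5o (-1.03) and Cox5b (-0.84) lie farthest below 0 among the 21 red members, and the 3 muscle isoforms Cox6a2, Cox8b and Cox7a1 lie farthest above it, with the longest bars.

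Of the assembly factors, 3 of 12 were lower, with a median difference of -0.16 (-0.17 without the 5 arrays). Ndufaf2, which holds a late intermediate of complex I before its tip is attached, was lower at the last 2 ages. It read 2.08, 2.07, 1.98, 1.73 and 2.13 at day 1, and 1.69, 1.88, 1.76, 1.97 and 1.88 at day 4. At day 7 it read 1.81, 1.78, 1.71, 1.65 and 1.87, at day 14 1.27, 1.37, 1.02, 1.27 and 1.70, and at day 42 1.36, 1.37, 1.42 and 1.23. All day 42 values lay below all day 1 values. Its day 42 minus day 1 difference was -0.65 ± 0.14 (limma adjusted p = 0.000856), and -0.66 ± 0.12 without the 5 arrays. Ndufaf4 (-0.60 ± 0.20) and Ndufaf6 (-0.54 ± 0.18), which act in earlier steps of complex I assembly, were the others. A second probe of Ndufaf4 differed by 0.11 and did not pass, and a second probe of Ndufb5 by -0.19, so both calls rest on 1 probe; the other probes of Cox7c, Atp5j2 and Ndufb6 passed in the same direction, and that of Atp5k was lower without passing. Over the 24 members with more than 1 probe, 28 of 31 further probes had the sign of the one used.

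Of the 94 members, 8 were lower with day 42 and day 1 groups that did not overlap, all of them among the 21. They were Atp5j, Atp5md, Atp5mpl, Cox7a2, Ndufab1, Ndufaf2, Ndufb5 and Ndufv2. Of all genes, 7.87% were lower in this way, and 8 of 94 is near that share. In all, 9 calls were kept when any single array was left out: Atp5md, Atp5mpl, Cox6c, Cox7a2, Cox7c, Ndufa11, Ndufaf2, Ndufb5 and Ndufv2. The 21 calls became 12 when day 42 replicate 3 was dropped, 13 when day 42 replicate 2 was, 14 when day 1 replicate 5 was, 34 when day 1 replicate 3 was and 52 when day 42 replicate 4 was. Fitted on the day 42 and day 1 arrays alone, limma called 0 members (smallest adjusted p = 0.0665). The same fit called 13.7% of all genes tested in either direction, and 6.68% of all genes tested were called lower. At an unadjusted p under 0.05 it had 13 members, and the share of all genes at that threshold was not counted. The arrays came from 3 slides, and within slides 1 and 2 the median member differed by -0.88 and -0.90, but within slide 3 by 0.85. The only day 42 array of slide 3 is replicate 4. With the 5 arrays left out, the median member differed by -0.39 and -0.68 in slides 1 and 2, and the median gene by -0.13 and 0.01. There 85 and 89 of 94 members were below 0, and the share of all genes was not counted. Each of these values rests on 1 day 1 array, which in slide 2 is day 1 replicate 2, described below. Slide 3 then gives no value. The choice of scaling moved which members passed: 9 (9.57%) did with each array scaled on its median, where 10.8% of all genes were lower, 24 (25.5%) with quantile normalization (14 of them among the 21), where 16% were, and 28 (29.8%) in the authors' table (11 of them), where 18% were. With the replicate number as a block 16 members were lower, all among the 21. In these ages all 4 same-numbered pairs of arrays deviated together, with correlations of 0.38 to 0.88. Replicate 4 stood apart in both ages and replicates 1 to 3 in neither. Between day 4 and day 1, where other numbers stood apart, the correlations were -0.62, 0.60, -0.85, -0.74 and -0.81 for replicates 1 to 5. Whether the numbers pair the samples was not tested.

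Day 1 replicate 2 also bears on these counts. Its cardiac muscle markers were far above those of the other arrays: the mean level of the 12 markers (all 12 tested) was 1.00 to 2.43 on the day 42 arrays, against 6.19 on day 1 replicate 2 and 0.52 to 1.93 on the other 4 day 1 arrays. Its member median, 0.38, was the highest of the arrays that did not stand apart. With this array left out as well as the 5, a setting chosen after seeing the data, 21 members were lower and 1, Cox6a2, was higher, and 13 of the 21 above were still called. Of all genes, 19.7% were then higher and 22.3% lower, this share of lower genes being equal to that of the members (22.3%), with 2 day 1 arrays remaining. The median member differed by -0.29 and the median gene by -0.03. Of the 9 calls kept without any single array, 6 were kept here too: Atp5mpl, Cox7c, Ndufa11, Ndufaf2, Ndufb5 and Ndufv2. Atp5md (limma adjusted p = 0.0755), Cox7a2 (limma adjusted p = 0.0636) and Cox6c (limma adjusted p = 0.185) did not pass. Neither did Atp5j (limma adjusted p = 0.107) and Ndufab1 (limma adjusted p = 0.0925), although their groups did not overlap with all arrays. Other cell populations differed between these ages too. All 10 cell cycle markers tested were lower at day 42 (median -3.18), as were 5 of 6 red cell precursor markers (median -1.68) and 3 of 9 pericyte markers (median -0.59), while 3 of 7 multiciliated cell markers were higher. Of the brown adipocyte markers 2 of 6 were higher (median 1.93). Of the cardiac markers 2 of 12 were lower (median -0.16), and of the skeletal muscle markers 2 of 7 (median -0.28). Of all genes, 13.7% were lower and 13% higher. The part of these cell populations in the members' difference was not tested.

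**Figure D3:**
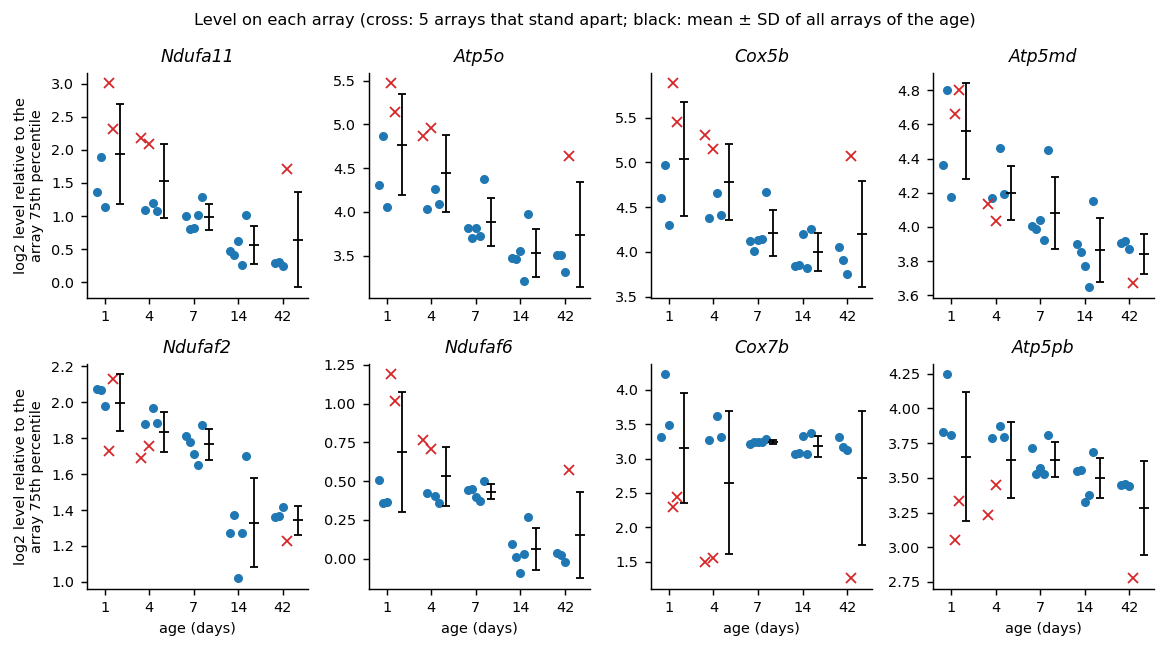
Log2 level of 8 members on each array by age in days: filled points are arrays, crosses the 5 arrays that stood apart, and black bars the mean ± SD of all arrays of the age. Ndufa11, Atp5o and Cox5b read high on the crosses, Cox7b and Atp5pb read low on them, and the day 14 points of Ndufaf6 all lie below its day 7 points, as do those of Ndufaf2 apart from 1 array.

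The steps between neighbouring ages gave few calls. For the counts at an unadjusted p under 0.05, the share of all genes was not counted, so nothing is read from them. No member passed between day 4 and day 1, where 0.0629% of all genes did, and 2 had an unadjusted p under 0.05; the median member differed by -0.20 (-0.12 without the 5 arrays), and the median gene by 0.00 (0.04). Single arrays moved this member median: dropping replicate 1 of day 4 gave -0.32, dropping its replicate 2 or 5 gave -0.13, and dropping replicate 3, 4 or 5 of day 1 gave -0.36, -0.04 and -0.11 in that order. It was 0.01 without the 5 arrays and day 1 replicate 2. Between day 7 and day 4, 0 members passed, against 0.00629% of genes, and 10 had an unadjusted p under 0.05. The median member differed by -0.47 and the median gene by -0.23, and without the 5 arrays, of which 2 are from day 4, by -0.19 and -0.04. With all arrays kept, the 2 medians were -0.17 and -0.13 with quantile normalization and -0.09 and -0.01 in the authors' table. Between day 42 and day 14, 0 passed against 3.69% of genes, with 2 at an unadjusted p under 0.05, and the medians were 0.28 for members and 0.07 for genes (0.08 and 0.05 with quantile normalization, 0.04 and -0.01 in the authors' table). Without the 5 arrays the medians of that step were 0.04 and -0.03, and 3 members passed. Cox4i2 (-0.49 ± 0.14) and Cox6b2 (-0.71 ± 0.18) were lower at day 42, where 6.82% of genes were, and the assembly factor Ndufaf8 (0.49 ± 0.16), named here after its value was seen, was higher, as were 6.73%.

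Between day 14 and day 7, ages that hold none of the 5 arrays, 3 members passed, 2 higher and 1 lower, against 11.6% of all genes (6.04% higher and 5.53% lower). The assembly factor Ndufaf2 was lower at day 14 by -0.44 ± 0.13 (limma adjusted p = 0.0281). The complex IV isoforms Cox6a2 (1.93 ± 0.61, limma adjusted p = 0.0434) and Cox6b2 (0.76 ± 0.21, limma adjusted p = 0.0154) were higher. With each array scaled on its median only Ndufaf2 passed, and with slide as a block Cox6a2 did not (limma adjusted p = 0.0637). The median member differed by -0.15 (-0.10 with quantile normalization, -0.08 in the authors' table) and the median gene by 0.02 (members by slide: -0.29, -0.13 and 0.02 in slides 1, 2 and 3), and 83 of 94 members were below 0, as were 47.5% of all genes. In each age 1 array read higher than the rest. Day 14 replicate 5 was above the other 4 day 14 arrays in 80 of 94 members, as were 32.3% of all genes, and below them in 2, as were 29.6%. Its cell cycle markers averaged 0.38 where the other day 14 arrays gave -1.44 to -1.22 and the day 7 arrays 1.02 to 1.28. In Ndufaf2 it read 1.70, within the day 7 range. Day 7 replicate 5 was above the other 4 day 7 arrays in 88 of 94 members, as were 51.5% of all genes, and below them in 1, as were 22.1%. Its member median was 0.15, against -0.33 to -0.29 on the other day 7 arrays. Without it the median member of this step differed by -0.06, with 65 of 94 members below 0 (46.5% of all genes), and without day 14 replicate 5 by -0.20. The day 14 and day 7 groups did not overlap in 1 member, Ndufaf6 (-0.37 ± 0.16, limma adjusted p = 0.181), and 8.11% of all genes were lower without overlap. With the 5 arrays left out, which changes only the estimate of spread here, 7 members were lower and 2 higher, against backgrounds of 18.1% and 20.5%. With day 14 replicate 5 left out too, 20 were lower and 2 higher, against 21.6% and 23.1%; Ndufaf2 then differed by -0.53 ± 0.07 (limma adjusted p = 2.86e-05) and Ndufaf6 by -0.42 ± 0.06 (limma adjusted p = 3.52e-05). With all arrays, leaving out day 14 replicate 4 gave 0 calls, and leaving out day 7 replicate 1 or 2 or day 14 replicate 1, 2 or 3 gave 1.

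The tissue isoforms followed single arrays at the early ages. Cox6a2, the muscle isoform of subunit VIa, read 0.46, 4.98, 1.13, 1.69 and 0.65 at day 1, and the 4.98 is on day 1 replicate 2, the array rich in cardiac markers. At day 4 it read 1.00, 0.05, 1.12, 0.34 and 0.56 and at day 7 0.44, -0.23, 0.28, -0.72 and 1.63. At day 14 it read 2.24, 1.87, 3.30, 1.57 and 2.04, and at day 42 2.42, 3.10, 2.32 and 3.45. Apart from that 1 day 1 array, every day 42 array was above every day 1, day 4 and day 7 array. The cardiac markers, on the same arrays, averaged -0.71 to 2.15 at day 7, 0.69 to 3.02 at day 14 and 1.00 to 2.43 at day 42. On day 14 replicates 2 and 4 they averaged 0.75 and 0.69, inside the day 7 range, while Cox6a2 read 1.87 and 1.57, both above every day 7 array other than replicate 5, which read 1.63. The part of muscle RNA in the Cox6a2 difference was not tested further.

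Cox7a1 and Cox8b, muscle isoforms that brown fat also expresses, were high on 2 early arrays. Day 1 replicate 2 was raised in 3 marker lists: beside its cardiac mean of 6.19, its brown adipocyte mean was -0.14, against -3.59 to -2.39 on the other day 1 arrays, and its skeletal muscle mean 1.14, against -1.21 to -0.47 (7 of 11 markers tested). Cox7a1 read 0.50, 4.34, 0.77, 1.49 and 0.86 at day 1 and 0.89, 0.05, 0.88, 3.36 and 0.88 at day 4. Cox8b read -0.93, 3.79, -0.23, -0.16 and -0.86 at day 1 and -0.47, -1.29, -0.37, 2.91 and -0.01 at day 4. The high day 1 array is replicate 2. The high day 4 array is replicate 4, where the brown adipocyte markers averaged 2.87 against -2.76 to -0.25 on the other day 4 arrays, and where the cardiac markers (0.97) and Cox6a2 (0.34) were not raised. Of the 8 brown adipocyte markers 6 were tested; Elovl3 was well above background on 0 arrays, Lep on 1 and Ucp1, the uncoupling protein that defines brown fat, on 17 of 24. At day 42 Cox7a1 read 2.28, 2.50, 1.38 and 2.35 and Cox8b 1.97, 1.06, 0.36 and 1.07, with brown adipocyte means of 2.58, -0.29, -0.03 and -2.08. The highest Cox8b value is on the array with the highest of these means, while Cox7a1 was also high on day 42 replicate 4, where the mean was lowest. Neither isoform passed between any of the ages compared.

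Cox6b2 had its highest age mean at day 14, while its highest single value was on day 1 replicate 4. It read 0.68, 0.53, 0.54, 1.33 and 1.11 at day 1 and 0.73, 0.39, 0.39, 0.30 and 0.33 at day 4. At day 7 it read 0.20, 0.06, 0.32, 0.59 and 0.21, at day 14 1.05, 1.23, 1.23, 1.32 and 0.36, and at day 42 0.16, 0.29, 0.53 and 1.01. Outside day 14, its values above 1.0 are all on arrays that stood apart. The other 4 day 14 arrays were above all day 7 arrays, and day 14 replicate 5 was inside their range. Cox4i2 read 2.03, 1.42, 1.71, 3.52 and 2.85 at day 1, 3.20, 2.25, 3.18, 2.32 and 2.30 at day 4 and 2.08, 2.02, 2.15, 2.56 and 2.50 at day 7. At day 14 it read 2.27, 2.41, 2.25, 2.24 and 2.26, and at day 42 1.57, 1.96, 1.86 and 3.42. Its values above 2.8 are all on the 5 arrays that stood apart. Ndufa4l2, a paralog of Ndufa4 known as a hypoxia target, was likewise above 4.0 on those 5 arrays and between 2.37 and 3.54 on the rest.

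**Figure D4:**
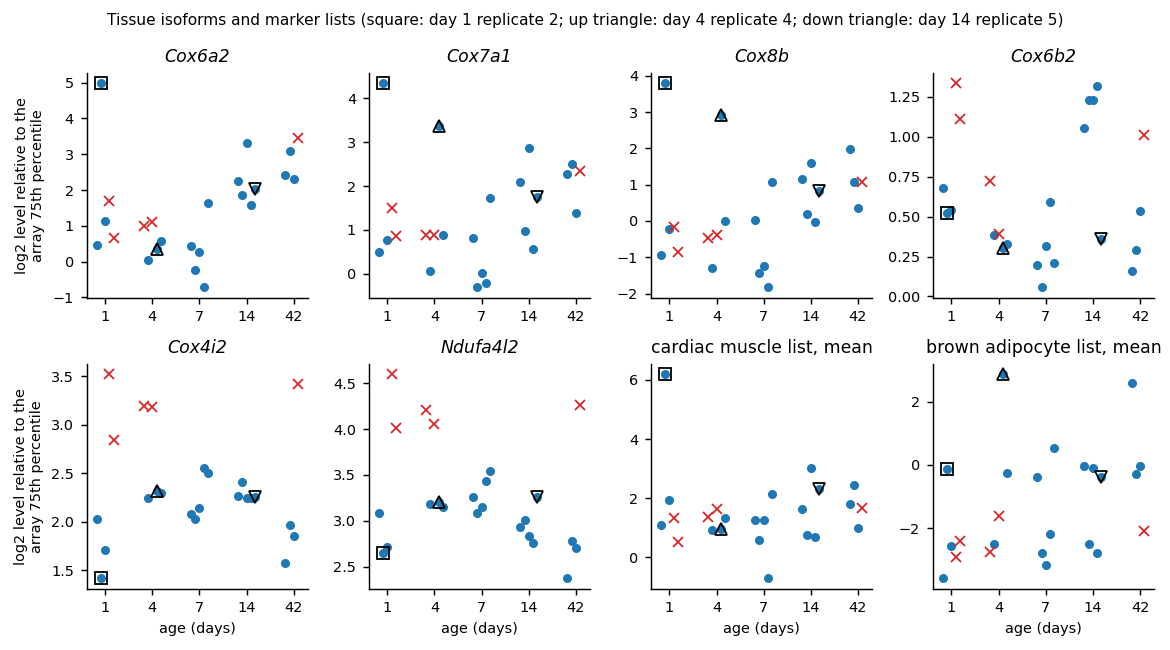
Log2 level on each array, by age in days, of 6 tissue isoforms and the mean level of the cardiac muscle and brown adipocyte marker lists; crosses are the 5 arrays that stood apart. The square marks day 1 replicate 2 (Cox6a2 4.98, cardiac mean 6.19), the upward triangle day 4 replicate 4 (Cox7a1 3.36, brown adipocyte mean 2.87) and the downward triangle day 14 replicate 5 (Cox6b2 0.36).

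Each tissue isoform was also set against the common isoform of its subunit on the same array, to ask whether the pair changed by different amounts between day 42 and day 1. The difference of 2 probes has no absolute meaning, so only its change is read. Cox4i2 minus Cox4i1 was -4.13, -3.74, -3.75 and -3.66 on the day 42 arrays, against -4.34, -5.02, -4.27, -4.32 and -4.26 on the day 1 arrays. The groups did not overlap, and the arrays that stood apart lay with the others of their age. Day 42 minus day 1 was 0.62, toward Cox4i2 (two-sided exact permutation p = 0.0159, the smallest that 4 against 5 arrays can give; 0.0952 adjusted over the 6 pairs). At day 4 this difference ran from -4.01 to -3.87, at day 7 from -3.93 to -3.33 and at day 14 from -3.84 to -3.38, which is given with no test. Day 42 minus day 1 was 1.45 for Cox6a2 minus Cox6a1 (exact p = 0.27), 1.25 for Cox8b minus Cox8a (exact p = 0.333), 1.20 for Cox7a1 minus Cox7a2 (exact p = 0.175), 0.37 for Cox6b2 minus Cox6b1 (exact p = 0.19) and 0.21 for Ndufa4l2 minus Ndufa4 (exact p = 0.762). No pair passed after adjustment. With quantile normalization the Cox4i2 value was 0.35 and its exact permutation p 0.333, and in the authors' table they were 0.44 and 0.127, so the groups overlapped in both. Without day 1 replicate 2, 4 pairs had an exact p of 0.0286, the smallest that 4 against 4 arrays can give, and 0.0429 adjusted: Cox4i2 (0.48), Cox6a2 (2.40), Cox7a1 (1.87) and Cox8b (2.23). Without the 5 arrays the Cox4i2 value was 0.67, and the smallest exact p that 3 against 3 arrays allow is 0.10.

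The neighbouring pathways give the setting. Among 11 tested genes for cytochromes c and c1, the adenine nucleotide and phosphate carriers, porins and uncoupling proteins, 4 were lower at day 42 than at day 1 and none higher (median -0.56). They were the adenine nucleotide carriers Slc25a4 (-0.87 ± 0.26) and Slc25a5 (-0.79 ± 0.27), cytochrome c itself, Cycs (-0.77 ± 0.21), and the porin Vdac3 (-0.56 ± 0.17). None of 13 tricarboxylic acid cycle genes passed (median -0.28; 3 were lower without the 5 arrays), and none of 25 further assembly factors (median -0.25; 6 lower and 2 higher without the 5). Of 12 regulators of mitochondrial biogenesis 1 was lower, the mitochondrial rRNA methyltransferase Tfb1m (-0.43 ± 0.14; median of the list -0.24). Of 15 glycolytic genes none was lower and 2 were higher with all arrays, the hexokinase Hk2 (0.82 ± 0.24) and the phosphofructokinase Pfkp (0.85 ± 0.20), although the median of the list was -0.47. Without the 5 arrays the median of this list was -0.24, with 2 genes lower and 3 higher. These lists are described by counts only, beside the 13.7% of genes lower and 13% higher with all arrays, and the 24% and 22.6% without the 5. The 3 of 13 and 6 of 25 genes lower without the 5 are near that share. With all arrays, the 2 of 15 glycolytic genes higher are near the 13%, and the 1 of 12 regulators lower is not above the 13.7%.

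**Figure D5:**
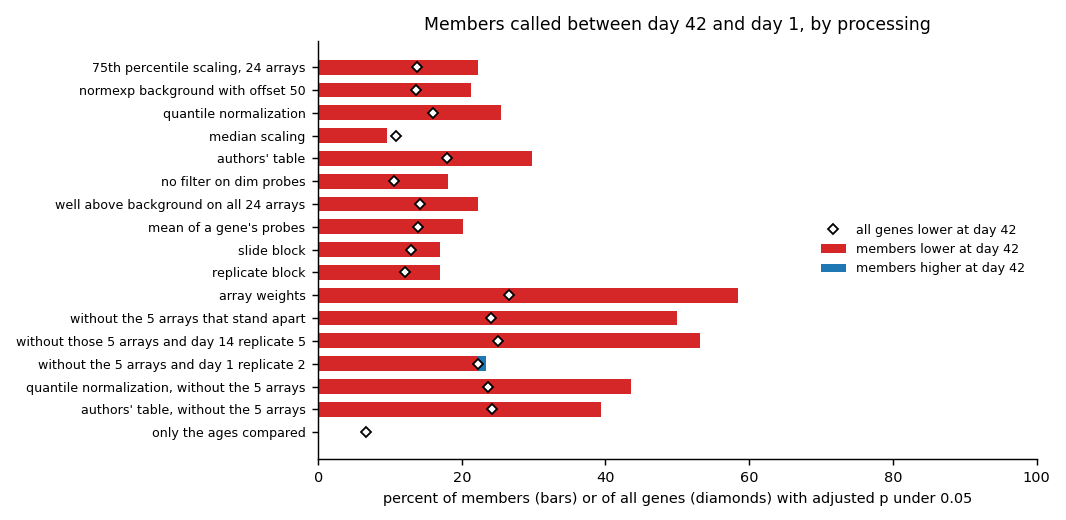
Percent of the 94 members with a limma adjusted p under 0.05 between day 42 and day 1 under each way of processing; red bars are members lower at day 42, blue ones members higher, and diamonds the percent of all genes lower under the same setting. The bars run from 0 with only the ages compared (6.68% of all genes) to 58.5% with array weights (26.5%); with median scaling the members' 9.57% lies under the 10.8% of all genes, and the 1 member called higher is Cox6a2.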

How the data were processed

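RNA of 24 whole-lung samples (5 each at day 1, 4, 7 and 14, and 4 at day 42) was read on 1-colour Agilent arrays (Cy3). Per the file headers, spot intensity was read with Agilent Feature Extraction 10.7.3.1 (10.7.1.1 per the submitters' processing notes), and the deposited processed signal is an intensity after background subtraction, not normalized between arrays. The deposited spot flags are 0 or 1 values from that software and carry no normalization of the authors. The authors' deposited table holds log2 values for 52095 probes; its normalization is not given in the sources used here, its column medians are 5.66 to 6.26, and its columns correlate with the log2 processed signal at 0.986 to 1.00.

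Here the log2 processed signal was taken relative to the 75th percentile of each array, after dropping spots flagged nonuniform and averaging spots of a probe. A gene was read from its brightest probe over all arrays, named through the array's accessions and RefSeq, and tested if well above background on at least 4 arrays. limma 3.58.1 (R 4.3.3) fitted 1 mean per age to all 24 arrays, with Benjamini-Hochberg adjustment over the 15891 genes of each of 5 comparisons. Replicate numbers have no stated meaning in the labels. Deviations of same-numbered arrays were correlated over 0.1 in all 4 pairs of day 42 and day 1, ages in which replicate 4 stood apart both times. They were not so in all pairs of any other comparison. Isoform pairs were compared with two-sided exact permutation tests. The limma fit was also run on simulated arrays with independent noise. These held no arrays that stand apart, so the run cannot speak to the effect of such arrays. Figures were drawn with Python 3.11.15. The number of arrays limits the precision.

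Members were chosen by symbol, and the members, lists and tests were chosen with earlier results of these data known. Named with values are all members past a test, the tissue isoforms with their common partners, and in each complex the highest, middle and lowest day 42 minus day 1 difference; of other lists, up to 4 genes past the test. Alternatives were normexp background correction (on the median spot signal, as the files used here hold no mean signal), quantile and median scaling, the authors' table, other filters and probe rules, slide or replicate number as a block, array weights, single arrays left out, the 5 arrays left out, and the compared ages alone.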

Additional observations from a re-analysis of the deposited data

Results flagged for a closer look

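Within each age of 4 or 5 arrays, the levels of the named members were searched for 1 array that lay far from the rest, with a gap to its nearest neighbour above Dixon's 95% critical value. Of 205 groups of values 41 (20%) held such an array, where chance gives about 1 in 20. Values are log2 levels, and the range of the other arrays of the age stands beside each. The arrays are not independent of each other across genes, since most entries fall on 2 arrays.

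Day 42 replicate 4, one of the 5 arrays that stood apart, held 15 high values. In complex I and its assembly these were Ndufa11 1.72 (others 0.25 to 0.31), Ndufaf6 0.57 (others -0.02 to 0.04), Ndufb6 4.13 (others 3.10 to 3.17) and Ndufs3 5.25 (others 4.07 to 4.20). In complexes II and III they were Sdhd 4.03 (others 3.23 to 3.33), Sdhb 6.72 (others 5.33 to 5.42), Sdha 5.19 (others 4.32 to 4.43) and Uqcrc1 4.66 (others 2.97 to 3.08). In complexes IV and V they were Atp5g3 7.26 (others 6.16 to 6.35), Atp5j2 5.93 (others 4.99 to 5.13), Atp5o 4.64 (others 3.32 to 3.50), Cox4i1 7.08 (others 5.61 to 5.71), Cox6a1 8.41 (others 7.15 to 7.31), Cox6b1 1.50 (others 0.14 to 0.27) and Cox8a 7.15 (others 6.05 to 6.20). On the same array Atp5mpl 3.29 (others 3.95 to 4.06), Ndufa4 3.39 (others 4.25 to 4.40), Cox7b 1.26 (others 3.12 to 3.31) and Atp5pb 2.78 (others 3.44 to 3.46) were low.

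Day 7 replicate 5 was not among those 5 arrays, yet held 13 high values, all of common subunits. They were Ndufa4 4.72 (others 4.36 to 4.43), Ndufb6 3.85 (others 3.20 to 3.38), Ndufc1 4.19 (others 3.55 to 3.71), Ndufv2 4.39 (others 3.96 to 4.08) and Ndufs3 4.73 (others 4.17 to 4.26) among the Nduf genes, Cox5b 4.66 (others 4.01 to 4.15), Cox4i1 6.43 (others 5.82 to 5.95), Cox6a1 7.51 (others 7.07 to 7.19) and Cox6b1 0.89 (others 0.20 to 0.37) in complex IV, and Atp5j2 5.53 (others 5.00 to 5.12), Atp5k 5.30 (others 4.78 to 4.87), Atp5md 4.45 (others 3.93 to 4.04) and Atp5o 4.37 (others 3.71 to 3.82) in complex V. It had the smallest share of spots well above background (57.0%) among the other 19 arrays, and the skeletal muscle markers (0.89, others -2.46 to -1.29), the cardiac markers (2.15) and the brown adipocyte markers (0.53) had their highest day 7 means on it. Their part in these values was not tested.

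Day 14 replicate 5 was high in Ndufb6 3.52 (others 3.00 to 3.13) and Cox4i1 6.10 (others 5.70 to 5.78) and low in Cox6b2 0.36 (others 1.05 to 1.32). Day 1 replicate 2, the array rich in cardiac and other muscle markers, was high in the muscle isoforms Cox6a2 4.98 (others 0.46 to 1.69), Cox7a1 4.34 (others 0.50 to 1.49) and Cox8b 3.79 (others -0.93 to -0.16). Day 4 replicate 4, the array rich in brown adipocyte markers, was high in Cox7a1 3.36 (others 0.05 to 0.89). The remaining pair was Cox6b2 0.73 (others 0.30 to 0.39) on day 4 replicate 1 and Cox4i2 2.41 (others 2.24 to 2.27) on day 14 replicate 2.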

How the results depend on the processing

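Of the 21 calls between day 42 and day 1, the count was 9 with median scaling (10.8% of all genes lower), 55 with array weights (26.5%), 47 without the 5 arrays (24%), 50 without day 14 replicate 5 as well (25.1%), 41 and 37 with quantile normalization and the authors' table without the 5 arrays (23.7% and 24.2%), and 0 with only the ages compared (6.68%); leaving out 1 array gave 12 to 52. Between day 14 and day 7 (3 calls, 11.6% of all genes) these settings gave 1 (8.21%), 29 (60.4%), 9 (38.5%), 22 (44.7%), 10 (40.6%), 11 (42%) and 5 (31%), the values of the authors 6 (22.4%), the 5 arrays and day 1 replicate 2 left out 10 (38.8%), and single arrays 0 to 3; under each of these settings the share of members called, 1.06% to 30.9%, was below that of all genes. Between day 42 and day 14 (0 calls) array weights gave 4 (31.2% of all genes), the values of the authors 1 (4 without the 5 arrays), quantile normalization without the 5 arrays 3, the 5 arrays left out 3, with day 1 replicate 2 as well 3, with day 14 replicate 5 as well 4, and single arrays 0. Array weights, which lower the weight of arrays that scatter, also gave 1 call between day 4 and day 1, 62 between day 7 and day 4 (28.6% of all genes), and 82 in the F-test (80.5%), where 35 passed in the reported fit, 55 without the 5 arrays and day 14 replicate 5, and 18 to 62 with 1 array left out. The cause of these differences was not tested. The calls lost or gained under normexp (20 calls between day 42 and day 1), quantile normalization (24), no filter on dim probes (17), a filter that needs all 24 arrays (21), averaged probes (19) and slide as a block (16) left that count within 1.5 times.

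Median scaling moved the median of all genes between day 42 and day 14 to 0.28, against 0.07, and that of the members to 0.49, against 0.28; between day 14 and day 7 it moved them to -0.15, against 0.02, and to -0.32, against -0.15.

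Reversals between day 42 and day 1 were all in members that did not pass. Cox4i2 (-0.10) was 0.010 with quantile normalization, 0.059 in the authors' table, 0.14 with array weights, 0.077 without the 5 arrays, with or without day 14 replicate 5, and 0.099 and 0.12 with quantile normalization and the authors' table without the 5 arrays; leaving out 1 array gave -0.51 to 0.20. Uqcrb (0.01) was -0.049 with median scaling, -0.013 with slide as a block, -0.17 with array weights, -0.14 without the 5 or 6 arrays, -0.044 and -0.031 with quantile normalization and the authors' table without the 5 arrays, and -0.13 to 0.23 with 1 array left out. Ndufs1 (-0.01) was 0.058 with normexp, 0.13 with quantile normalization, 0.20 in the authors' table, -0.30 without the 5 or 6 arrays and -0.24 to 0.25 with 1 array left out. Sdha (-0.10) was 0.11 with quantile normalization, 0.17 in the authors' table, 0.020 without the 5 arrays and day 1 replicate 2, 0.015 in the authors' table without the 5 arrays, and -0.30 to -0.0099 with 1 array left out. Without the 5 arrays Cox6a1 was 0.024 in the authors' table, and Cox8a 0.052 with quantile normalization and 0.0096 in the authors' table. Cox7b ran from -0.65 to 0.047 with 1 array left out.

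For the isoform pairs, leaving out 1 array gave 0.48 to 0.73 for Cox4i2 (0.43 without the 5 arrays and day 1 replicate 2), 1.03 to 2.40 for Cox6a2, 0.92 to 1.87 for Cox7a1, 0.81 to 2.23 for Cox8b and -0.43 to 0.61 for Ndufa4l2. With the replicate number as a block, 16 members passed between day 42 and day 1 and 2 between day 14 and day 7, and the block changed no count by over 1.5 times. Over all 5 comparisons 8 of 23 same-numbered pairs had deviations correlated over 0.1, the 4 pairs of day 42 and day 1 among them, and 4 of 24 arrays correlated best with their own number. Normexp used the median spot signal in place of the planned mean signal.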
